A study of Capra hircus with 21 samples.

Results

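Goat (Capra hircus) oocytes were compared with goat blastocysts, the beginning and the end of preimplantation development. The comparison rests on the 3 oocyte libraries and the 3 blastocyst libraries of a set of 21, each lettered A, B and C, chosen by the stage named in their titles, and on every gene of the deposited table. The oocytes had matured in the animal and the embryos had developed there, and total RNA was sequenced. The other 15 libraries, 3 each from 2-cell, 4-cell, 8-cell and 16-cell embryos and morulae, entered the model of the spread and showed when a difference arose. The labels give no breed, age or treatment, do not say how many oocytes or embryos a library held, and do not tie libraries to animals. What the p-values weigh is thus the variation among these libraries, part of which may be technical.

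A full-grown oocyte is transcriptionally silent and carries stored messenger RNAs that drive meiotic completion, fertilization and the first cleavages. These maternal RNAs are deadenylated and degraded while the embryonic genome is switched on, which in ruminants happens some cleavages after fertilization. By the blastocyst stage an epithelium, the trophectoderm, pumps fluid into a cavity and encloses the inner cell mass, and mitochondria and ribosomes are again being made.

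Levels are RPKM values, reads per kilobase of gene and per M reads, and none is below 0.01, which is read here as an offset that stands for no read. The length that turns the deposited values into whole reads is the whole span of the gene with its introns, which lowers the values of long genes. Reads assigned to the listed genes numbered 16.6 to 19.6 M per oocyte library and 11.1 to 14.3 M per blastocyst library, and 3 reads in a gene spanning 10 kb amounted to 0.00527 to 0.00851 RPKM. That floor covers counting error only. The listed genes took 35.3 to 36.3% of a library's reads in oocytes and 24.4, 24.9 and 40.5% in blastocysts A, B and C. Log2 levels correlated across genes at 0.956 to 0.986 among the oocyte libraries, 0.912 to 0.946 among the blastocyst libraries and 0.406 to 0.506 between the groups, where genes are not independent replicates. Blastocyst B stood apart in several measures: it had 1620 genes at 1 RPKM or more against 2093 in A and 2421 in C.

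Of 19040 genes, 4253 had at least 1 RPKM in at least 3 of the 21 libraries and were tested with limma on log2(RPKM + 1). Calling a gene took a log2 difference, blastocyst minus oocyte, of at least 1 in size together with a p below 0.05 after Benjamini-Hochberg adjustment. By this rule 2053 genes (48.3%) were called, 842 higher (19.8%) and 1211 lower (28.5%) in blastocysts. In 71.9% of tested genes, called or not, the oocyte and blastocyst libraries did not overlap. Of the 2053 called genes 76 had overlapping libraries, so separation of the groups is the usual state of a called gene. Among the called genes 420 rose and 523 fell at least 4-fold, and 106 rose and 87 fell at least 16-fold on this scale, which understates the change of low genes. The 1211 lower genes held 68.9 ± 1.96% (SD, n = 3) of gene reads in oocytes and 6.79 ± 2.79% in blastocysts. The 842 higher genes held 4.29 ± 1.42% in oocytes and 70.1 ± 5.58% in blastocysts. Both sets were chosen from these same libraries, so the direction of the shares follows from the choice. The 13 mitochondrially encoded genes, all among the higher, held 32.2 ± 6.91% of gene reads in blastocysts. Of the lower genes, 674 were below 1 RPKM in every blastocyst library, and 76 were still at a mean of 10 RPKM or more. Of the higher genes, 497 were below 1 RPKM in every oocyte library. Genes of these kinds passed the filter through the group or stages where they were high, so the counts over tested members of a list describe those members and not the whole list.

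**Figure D1:**
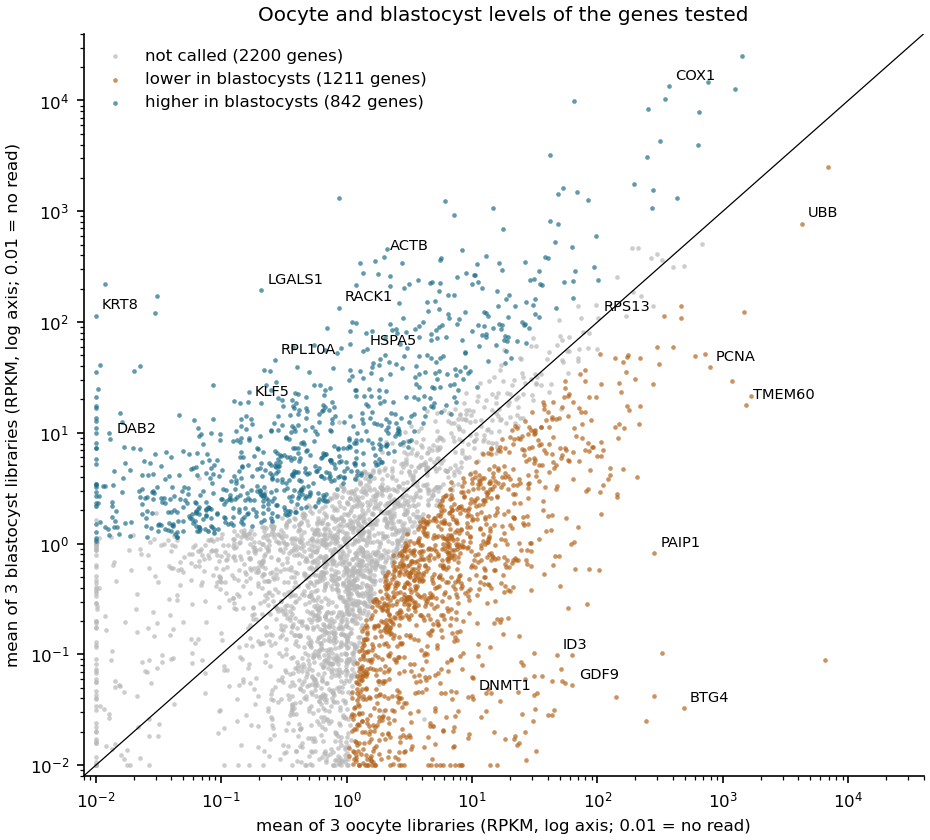
Mean RPKM in 3 oocyte libraries (horizontal, log axis) against mean RPKM in 3 blastocyst libraries (vertical, log axis) for the 4253 genes tested; each point is a gene and the line marks equal levels. The 842 higher genes reach from KRT8, with no read in oocytes, to the mitochondrial gene COX1, and the 1211 lower genes include BTG4, PAIP1 and GDF9.

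The direction of the calls depended on how the libraries were scaled. Rising genes made up 41.0% of the calls on RPKM, 49.8% after quantile normalization and 55.5% (1168 higher, 935 lower) when each library was scaled to its reads in nuclear genes, a scaling chosen after seeing the data. The median tested gene differed by -0.33 log2 units on RPKM, -0.11 after quantile normalization and -0.02 with nuclear gene reads. No gene called on RPKM was called with the other sign in any of the 20 alternative fits that tested it. With a pseudocount of 5 in place of 1, 413 genes were higher and 503 lower, and each of the 63 named genes that lost its call had a mean of at most 11.5 RPKM in its higher group. In bulk samples fewer cells of a type and less RNA per cell cannot be told apart.

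Summed markers of oocytes, of trophectoderm and of inner cell mass were higher in the libraries so labelled. All 6 oocyte markers found in the table (GDF9, BMP15, ZP2, ZP4, OOEP and MOS) fell, and their summed level was 269.6 to 381 RPKM in oocyte libraries and 1.03 to 6.10 RPKM in blastocyst libraries. The 8 trophectoderm markers found summed to 0.644 to 1.18 RPKM in oocytes and 103 to 174 RPKM in blastocysts, most of it KRT8, and KRT8, TFAP2C and TEAD4 were without a read in the oocytes. The 6 inner cell mass markers summed to 4.19 to 6.71 RPKM in oocytes, where GDF3 gave most of the sum, and 9.69 to 34.1 RPKM in blastocysts. Of the 4 tested, POU5F1 and KLF4 rose, and GDF3 and LIN28A were not called. LIN28A went the other way, at 1.36, 0.788 and 0.376 RPKM in oocytes and 0.0451, 0.205 and 0.01 RPKM in blastocysts, without overlap. The 4 primitive endoderm markers were near absent in both groups (0.115 to 0.170 and 0.0568 to 0.166 RPKM). Markers of the cumulus and granulosa cells that surround an oocyte were low. FSHR, AMH and INHA had no read in oocytes, and the other markers found had reads there. TNFAIP6, next highest in oocytes after STAR, stood at 0.114, 0.280 and 0.293 RPKM there and 0.01, 0.0330 and 0.01 RPKM in blastocysts. The 11 found summed to 3.50 to 6.26 RPKM in oocytes and 0.239 to 0.452 RPKM in blastocysts. STAR, a cholesterol transporter of steroid-producing cells, made up most of that sum at 4.31, 3.09 and 5.86 RPKM in oocytes A, B and C and 0.127, 0.149 and 0.195 RPKM in blastocysts (log2 difference -2.20, adjusted p = 6.19e-06). The 8 stroma and endothelium markers summed to 3.58 to 4.81 RPKM in oocytes and 0.227 to 0.379 RPKM in blastocysts, led in oocytes by DCN, a proteoglycan of connective tissue, at 3.37, 2.99 and 4.07 RPKM. Oviduct and uterine epithelium markers (7 found) summed to 0.654 to 2.02 RPKM in oocytes and 0.0927 to 0.897 RPKM in blastocysts, leukocyte markers (7 found) to 0.0923 to 0.117 and 0.436 to 0.655 RPKM, and ALAS2, the single erythrocyte marker found, to 0.0110 to 0.0173 and 0.01 to 0.0142 RPKM. The part of such cells in the results was not tested.

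Of the oocyte-secreted factors and zona pellucida genes 5 were tested (10 found of 14 listed): 4 fell and none rose, against 28.5% and 19.8% of all genes tested, and the median log2 difference was -4.57 against -0.33. GDF9, a growth factor through which the oocyte instructs its follicle (chromosome 7, 66025761 to 66028246, as the table gives it, in a build not given in the sources used here), stood at 62.3, 54.96 and 72.4 RPKM in oocytes A, B and C and at 0.0456, 0.0453 and 0.0671 RPKM in blastocysts A, B and C (log2 difference -5.92, SE 0.65, adjusted p = 2.33e-07). Its partner BMP15 stood at 38.8, 33.6 and 57.8 RPKM in oocytes and 0.01, 0.0657 and 0.0965 RPKM in blastocysts (log2 difference -5.36, SE 0.62, adjusted p = 4.34e-07). For both factors every oocyte library lay far above every blastocyst library. The coat glycoprotein genes ZP2 (23.5, 18.3 and 28.8 RPKM in oocytes, 0.0157, 0.01 and 0.0222 RPKM in blastocysts, log2 difference -4.57) and ZP4 (14.5, 17.7 and 33.7 and 0.0192, 0.0124 and 0.0238 RPKM, log2 difference -4.405) showed the same separation. KIT, the stem cell factor receptor, was low in both groups and not called (0.324 ± 0.0294 and 0.275 ± 0.119 RPKM, mean ± SD, n = 3).

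Maternal-effect genes, whose oocyte products the embryo needs for its first divisions, fell in 8 of 11 tested (22 found), with a median of -2.57 and none higher. OOEP, a member of the subcortical maternal complex (chromosome 14, 94407128 to 94410262), measured 153.3, 124 and 155.2 RPKM in oocytes and 1.70, 0.872 and 5.85 RPKM in blastocysts (log2 difference -5.47, SE 0.77, adjusted p = 4.60e-06). UCHL1, a ubiquitin hydrolase abundant in oocytes, measured 39.1, 35.1 and 46.9 RPKM and 0.01, 0.0646 and 0.01 RPKM (log2 difference -5.32, adjusted p = 1.22e-08), with no read in blastocysts A and C. KPNA7, an importin of the early embryo (32.98, 26.7 and 33.5 RPKM, then 0.0357, 0.0153 and 0.139 RPKM), and ZAR1L, a relative of the zygote arrest protein (12.6, 5.81 and 12.3 RPKM, then 0.0361, 0.0469 and 0.0361 RPKM), fell with log2 differences of -4.91 and -3.37. Blastocyst C kept the highest OOEP and KPNA7 of its group, still below every oocyte library. TRIM28, a silencer of transposable elements, was not called at 0.540 ± 0.128 and 0.838 ± 0.219 RPKM.

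**Figure D2:**
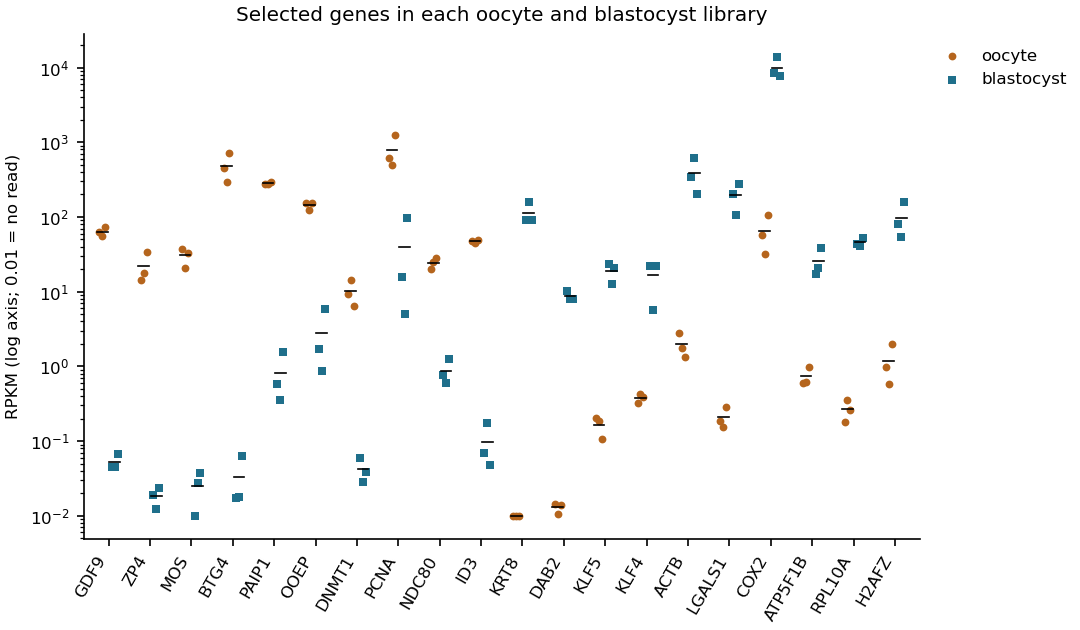
RPKM (log axis, 0.01 means no read) of 20 genes in each oocyte library (circles) and blastocyst library (squares), ordered A to C from left to right, with the group mean as a bar. For every gene shown the 3 oocyte and 3 blastocyst libraries do not overlap; the 10 genes on the left fell and the 10 on the right rose.

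Genes of meiotic arrest and resumption fell in 12 of 15 tested (33 found), with a median of -2.16 and none higher. MOS, the kinase that holds the egg in metaphase II (chromosome 14, 58781192 to 58782215), was at 37.6, 21.04 and 33.2 RPKM in oocytes and 0.01, 0.0272 and 0.0377 RPKM in blastocysts (log2 difference -4.91, SE 0.63, adjusted p = 1.41e-06). Cyclin B2 (CCNB2), a partner of the M-phase kinase, went from 26.8, 15.4 and 46.9 RPKM to 0.420, 0.143 and 1.995 RPKM (log2 difference -4.05, adjusted p = 2.77e-07). The spindle kinase AURKA (75.4, 65.2 and 26.5, then 1.87, 0.790 and 2.41 RPKM) and the cohesin protector SGO1 (34.5, 43.1 and 25.2, then 1.40, 0.651 and 1.26 RPKM) fell with log2 differences of -4.32 and -4.05. Oocyte C had the lowest AURKA and SGO1 of the oocytes and the highest CCNB2, and no library of either group crossed into the other. CDK1, the M-phase kinase itself, was not called and is described with the genes that moved in between. Its mean difference was small, but the 95% interval of -1.07 to 0.92 does not bound it within 2-fold. AURKB was not called either (95% interval of the difference -0.78 to 0.69).

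Maternal RNA storage and clearance genes were mostly not called on RPKM: 5 of 21 tested (47 found) fell, near the share over all genes, and 1 rose, with a median of -0.67. With the gene span multiplied out, so that values are in RPM (reads per M reads), 25 of 42 fell and 4 rose, against 36.6% lower and 20.8% higher over the 10384 genes tested on that scale. BTG4, the adaptor that brings the CCR4-NOT deadenylase to maternal RNAs (chromosome 15, 60577010 to 60592524), had the largest fall of any tested gene with a symbol. It stood at 445.4, 297 and 715 RPKM in oocytes, 2.10% of gene reads on average, and at 0.0171, 0.0179 and 0.0630 RPKM in blastocysts (log2 difference -8.79, SE 0.73, adjusted p = 6.40e-09). PAIP1, a partner of poly(A)-binding protein (chromosome 20, 31241299 to 31270352), held 2.29% of oocyte gene reads and went from 278, 276 and 292 RPKM to 0.578, 0.353 and 1.54 RPKM (log2 difference -7.33, SE 0.92, adjusted p = 1.23e-06). ZFP36L1, which binds AU-rich elements and hastens decay, fell from 29.998, 36.02 and 11.2 RPKM to 0.643, 3.13 and 0.638 RPKM (log2 difference -3.43, adjusted p = 1.67e-05). EIF4E1B, the oocyte cap-binding protein, stood at 1.87, 1.24 and 3.54 RPKM in oocytes and had no read in any blastocyst library. The one riser, the helicase DDX6 of cytoplasmic RNA granules, went from 0.154, 0.159 and 0.350 to 1.39, 2.01 and 1.502 RPKM (log2 difference 1.10, adjusted p = 1.90e-05).

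DNA methylation genes fell in 4 of 6 tested on RPKM and rose in none, where 1 rose, TET1, with quantile normalization or nuclear gene reads. DNMT1, which copies methylation after replication (chromosome 7, 94593298 to 94637220), measured 9.24, 14.5 and 6.38 RPKM in oocytes and 0.0593, 0.0280 and 0.0384 RPKM in blastocysts (log2 difference -3.34, SE 0.51, adjusted p = 1.04e-05). UHRF1, which guides DNMT1 to replicated DNA, went from 2.05, 2.65 and 1.39 RPKM to 0.0385, 0.0892 and 0.0434 RPKM (log2 difference -1.499, adjusted p = 6.39e-06), and its relative UHRF2 from 1.68, 3.88 and 1.41 RPKM to 0.0410, 0.0175 and 0.0353 RPKM. The de novo enzymes went the other way but did not pass the RPKM filter: DNMT3A was at 0.0407, 0.0320 and 0.0317 RPKM in oocytes and 0.317, 0.253 and 0.525 RPKM in blastocysts, and DNMT3B at 0.109, 0.168 and 0.0778 and 0.881, 3.49 and 0.417 RPKM. On RPM both were called higher (log2 difference 3.19, adjusted p = 2.78e-06 for DNMT3A, log2 difference 3.07, adjusted p = 5.20e-05 for DNMT3B). The demethylase TET1 stood at 1.34, 0.718 and 0.637 RPKM in blastocysts against 0.0651, 0.0890 and 0.0527 RPKM in oocytes. It missed the fold threshold on log2(RPKM + 1), which shrinks differences at low levels (log2 difference 0.81, adjusted p = 4.96e-04). It was called higher with a pseudocount of 0.1 and on RPM (log2 difference on RPM 3.69, adjusted p = 2.92e-07). Over the 15 members tested on that scale 5 fell and 4 rose, against 36.6% lower and 20.8% higher over all genes.

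Of 8 trophectoderm genes tested on RPKM (33 found) 2 were higher and 2 lower, near the 19.8% and 28.5% over all genes tested. On RPM 15 of 25 were higher and 4 lower, against 20.8% and 36.6% over all genes on that scale. KRT8, a keratin of simple epithelia (chromosome 5, 26768248 to 26776612), was without a read in oocytes A, B and C and stood at 91.6, 159.9 and 91.9 RPKM in blastocysts (log2 difference 6.79, SE 0.32, adjusted p = 2.33e-12), at least 51418-fold higher against a floor of 3 reads over the group. DAB2, an endocytic adaptor of extraembryonic epithelia (chromosome 20, 34991781 to 35050807), measured 0.0145, 0.0107 and 0.0138 RPKM in oocytes and 10.3, 7.90 and 8.03 RPKM in blastocysts (log2 difference 3.26, SE 0.18, adjusted p = 2.73e-11). All 3 blastocyst libraries carried both genes at levels within 2-fold of each other. ID3, an inhibitor of basic helix-loop-helix factors, fell from 48.1, 44.2 and 49.4 RPKM to 0.0696, 0.176 and 0.0483 RPKM (log2 difference -5.46, SE 0.40, adjusted p = 9.37e-10), and the AP-2 factor TFAP2B from 3.03, 1.76 and 2.08 to 0.0266, 0.0568 and 0.0430 RPKM (log2 difference -1.64, adjusted p = 7.72e-04). The lineage regulators were present at low levels and were not tested on RPKM: CDX2 at 0.0241, 0.0495 and 0.0340 RPKM in oocytes and 0.252, 0.261 and 0.0784 RPKM in blastocysts, and GATA3 at 0.438, 0.473 and 0.340 and 0.982, 1.82 and 0.625 RPKM. TFAP2C had no read in oocytes and 0.468, 0.0945 and 0.437 RPKM in blastocysts. On log2(RPKM + 1), which shrinks differences at such low levels, it stayed short of 2-fold (log2 difference 0.39, adjusted p = 0.0304). It was called higher on RPM (log2 difference 1.72, adjusted p = 9.25e-05).

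Pluripotency and inner cell mass genes rose in 5 of 11 tested and fell in none (26 found), with a median of 0.90; on RPM 10 of 20 were higher and 3 lower. KLF5, a Krüppel-like factor of both blastocyst lineages (chromosome 12, 38593748 to 38619014), measured 0.202, 0.184 and 0.108 RPKM in oocytes and 23.6, 12.7 and 20.4 RPKM in blastocysts (log2 difference 4.05, SE 0.37, adjusted p = 1.71e-08). KLF4 (chromosome 8, 96957878 to 96965726) measured 0.322, 0.428 and 0.385 RPKM and 22.4, 5.75 and 22.3 RPKM (log2 difference 3.49, SE 0.39, adjusted p = 2.58e-07), with blastocyst B the lowest of its group. POU5F1, the core pluripotency factor, went from 0.214, 0.179 and 0.174 RPKM to 2.30, 1.27 and 1.79 RPKM (log2 difference 1.21, adjusted p = 3.80e-05), and SALL4 from 1.88, 1.46 and 1.71 to 4.33, 6.17 and 5.79 RPKM (log2 difference 1.25, adjusted p = 3.22e-05). TBX3 rose to 3.63, 1.56 and 0.384 RPKM from 0.0178, 0.0328 and 0.0191 RPKM (log2 difference 1.31, adjusted p = 0.00115) and was not called without blastocyst A. NANOG had no read in oocytes and 0.0148, 0.638 and 0.207 RPKM in blastocysts, uneven between libraries and not tested, and SOX2 stood at 0.0494, 0.01 and 0.125 and 0.583, 0.484 and 0.393 RPKM. Of the primitive endoderm list 1 gene of 20 found was tested, LRP2, an endocytic receptor of absorptive epithelia, which rose from 0.505, 0.479 and 0.437 to 3.22, 2.03 and 2.74 RPKM (log2 difference 1.30, adjusted p = 2.23e-07). GATA6, not tested on RPKM, stood at 0.0106, 0.0107 and 0.01 and 0.0876, 0.0403 and 0.0171 RPKM and was called higher on RPM (log2 difference 1.003, adjusted p = 0.0266).

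Genes of junctions, polarity and the blastocoel rose in 5 of 12 tested and fell in 2 (43 found), with 7 higher without blastocyst B and 4 without C. EPCAM, an epithelial adhesion molecule, measured 0.499, 0.433 and 0.406 RPKM in oocytes and 4.12, 0.959 and 4.60 RPKM in blastocysts (log2 difference 1.41, adjusted p = 2.64e-04), and F11R, a tight junction adhesion molecule, 0.0955, 0.0896 and 0.138 and 1.89, 1.05 and 1.75 RPKM (log2 difference 1.20, adjusted p = 5.26e-05). The tight junction claudin CLDN6 was called higher (log2 difference 2.49, adjusted p = 0.00345) although its libraries overlapped: it stood at 0.181, 0.554 and 0.01 RPKM in oocytes and 11.7, 0.273 and 19.3 RPKM in blastocysts, with blastocyst B inside the oocyte range. GJB5, a gap junction connexin, followed the same order of blastocyst libraries (4.42, 0.0740 and 9.47 RPKM against 0.01, 0.0359 and 0.01 RPKM in oocytes). Neither CLDN6 nor GJB5 was called when the oocyte and blastocyst libraries were fitted alone. Other members of the same families fell: claudin CLDN12 from 13.3, 10.9 and 13.5 to 0.190, 0.273 and 1.28 RPKM (log2 difference -3.16, adjusted p = 1.58e-06) and connexin GJC1 from 8.35, 7.53 and 4.88 to 0.103, 0.187 and 0.177 RPKM (log2 difference -2.75, adjusted p = 1.27e-05).

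The cytoskeleton and S100 list rose in 11 of 20 tested and fell in 2, with a median of 1.54. The cytoplasmic actins led it. ACTB (chromosome 25, 39659510 to 39664793) measured 2.82, 1.76 and 1.35 RPKM in oocytes and 347, 613 and 205.2 RPKM in blastocysts (log2 difference 6.92, SE 0.38, adjusted p = 2.55e-11), and ACTG1 11.98, 12.02 and 14.6 and 336, 509.6 and 329.6 RPKM (log2 difference 4.80, SE 0.37, adjusted p = 2.17e-09). LGALS1, a galactose-binding lectin (chromosome 5, 108434880 to 108438003), went from 0.186, 0.153 and 0.288 RPKM to 202, 107.2 and 274 RPKM (log2 difference 7.24, SE 0.43, adjusted p = 6.41e-11). Blastocyst B had the highest values of both actins and of KRT8 and the lowest LGALS1. The entry named TMSB4X, which sequesters actin monomers, fell from 89.2, 188.4 and 19.3 RPKM to 17.7, 0.270 and 0.430 RPKM (log2 difference -4.44, adjusted p = 0.00187), with the highest blastocyst library just under the lowest oocyte library. This entry is short (chromosome 3, 20253819 to 20253954) and its values rest on 635, 1193 and 141 reads in oocytes and 108, 2 and 2 in blastocysts. Whether they stand for the whole gene was not tested. Reads of actin and tubulin genes may be shared with near-identical copies, since the counting rule is not given in the sources used here.

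Genes encoded by the mitochondrial genome rose in 13 of 13, with a median of 3.96; 12 of 13 were higher after quantile normalization and 13 of 13 under the other scalings. They held 0.843, 0.657 and 3.36% of gene reads in oocytes A, B and C and 29.4, 40.1 and 27.1% in blastocysts A, B and C. The means were 1.62 ± 1.51% and 32.2 ± 6.91% (SD, n = 3), and the exact two-sided permutation test gave p = 0.1, the smallest that 3 libraries against 3 allow. COX2, a catalytic subunit of complex IV, stood at 57.2, 31.96 and 105.3 RPKM in oocytes and 8430.1, 13952 and 7586 RPKM in blastocysts (log2 difference 7.35, SE 0.58, adjusted p = 2.67e-09). COX1 measured 287, 106 and 720.1 RPKM and 8985, 18371 and 12756 RPKM (log2 difference 5.51, SE 0.75, adjusted p = 3.02e-06) and took 7.31% of blastocyst gene reads, followed by COX3 with 6.89% and ND2 with 4.38%. Oocyte C was the highest oocyte library for each of these genes and lay below every blastocyst library. The 10 largest genes of each library held 19.6 ± 3.96% of gene reads in oocytes and 37.2 ± 8.45% in blastocysts, and the number of genes that together held 50% of gene reads was 174 ± 53.6 and 43.0 ± 27.5 (exact permutation p = 0.1 for both).

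Nuclear genes of oxidative phosphorylation moved the same way: 30 of 36 tested rose and none fell (41 found of 92), with a median of 1.67, and 24 were higher without blastocyst C. ATP5F1B, the catalytic beta subunit of ATP synthase, measured 0.606, 0.620 and 0.971 RPKM in oocytes and 17.1, 20.7 and 38.4 RPKM in blastocysts (log2 difference 3.85, SE 0.28, adjusted p = 1.10e-09). NDUFS5 of complex I went from 2.76, 1.71 and 1.06 RPKM to 43.7, 29.2 and 65.1 RPKM (log2 difference 4.02, adjusted p = 3.02e-08), and UQCRQ of complex III from 4.93, 6.17 and 2.97 to 101.3, 29.8 and 76.7 RPKM (log2 difference 3.50, adjusted p = 1.54e-06). NDUFA6 was not called and the interval of its difference was -0.61 to 0.88. Mitochondrial ribosomal proteins rose in 17 of 41 tested and fell in 3, with a median of 0.68. That count rested on blastocyst C, since 10 were higher without it, while 22 were higher without blastocyst B and 24 with nuclear gene reads as the scale. MRPL17 rose from 2.54, 1.96 and 1.61 RPKM to 33.5, 27.2 and 90.7 RPKM (log2 difference 3.89, adjusted p = 8.32e-08), while MRPL20 fell from 46.1, 45.2 and 38.6 to 11.2, 5.24 and 23.7 RPKM (log2 difference -1.84, adjusted p = 6.69e-04).

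Cytosolic ribosomal protein genes rose in 28 of 30 tested, with a median of 3.002 and none lower, where 30 of 79 listed were found. RPL10A (chromosome 23, 39288216 to 39290649) measured 0.183, 0.355 and 0.264 RPKM in oocytes and 43.5, 41.2 and 52.1 RPKM in blastocysts (log2 difference 5.20, SE 0.31, adjusted p = 6.41e-11), and RPS18 2.003, 1.53 and 0.751 and 73.1, 66.8 and 99.0 RPKM (log2 difference 5.07, SE 0.34, adjusted p = 3.24e-10). The members not called were RPL27 and RPS13, both already abundant in oocytes: RPS13 stood at 113, 97.995 and 90.1 RPKM in oocytes and 106.96, 80.8 and 141 RPKM in blastocysts, with an interval of -0.60 to 0.80. Ribosomal protein genes have processed copies, so reads may be shared among them. Nucleolar factors of ribosome assembly divided, with 7 of 36 tested higher, near the share over all genes, and 5 lower (5 and 9 without blastocyst C). The box C/D protein NOP56 rose from 2.02, 1.92 and 2.21 to 14.4, 21.2 and 35.3 RPKM (log2 difference 2.93, adjusted p = 4.89e-07), and UTP23, of the small-subunit processome, fell from 53.6, 48.5 and 48.1 to 4.195, 2.76 and 15.1 RPKM (log2 difference -2.91, adjusted p = 2.89e-06).

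Of 25 translation factors tested 9 were higher and 7 lower (13 and 3 with nuclear gene reads), against 19.8% and 28.5% over all genes. The share of lower genes was near that over all genes. PABPC1, the somatic poly(A)-binding protein, rose from 1.48, 2.25 and 1.07 RPKM to 66.0, 117 and 64.7 RPKM (log2 difference 4.97, SE 0.41, adjusted p = 4.77e-09), opposite to PAIP1, its partner. EEF1A1, the elongation factor that delivers aminoacyl-tRNA, rose from 12.4, 8.03 and 11.3 RPKM to 258, 94.2 and 447 RPKM (log2 difference 4.28, adjusted p = 6.43e-08). EIF1, which scans for the start codon, fell from 178, 168 and 165 RPKM to 49.3, 15.9 and 79.8 RPKM (log2 difference -2.07, adjusted p = 0.00468), and EIF5B, which joins the ribosomal subunits, from 20.6, 17.7 and 16.5 to 0.973, 1.01 and 1.26 RPKM (log2 difference -3.21, adjusted p = 5.24e-07). For EIF1, EIF5B and the elongation factor alike the groups did not overlap. RACK1, a scaffold of the small ribosomal subunit that is on none of the lists, rose from 0.852, 0.744 and 0.991 to 63.7, 84.5 and 256 RPKM (log2 difference 5.92, SE 0.38, adjusted p = 1.82e-10). EIF5 was not called, with an interval of -0.97 to 0.65.

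Of the glucose uptake and glycolysis list 4 of 19 found were tested and all 4 rose; their means were below 1 RPKM in oocytes, so they passed the filter through stages other than the oocyte, and on RPM 6 of 14 rose and 1 fell. SLC2A3, a high-affinity glucose transporter, went from 0.0283, 0.0176 and 0.0411 RPKM to 3.62, 2.40 and 2.52 RPKM (log2 difference 1.89, adjusted p = 6.90e-08), and the glycolytic enzyme ENO1 from 0.105, 0.0586 and 0.0345 to 1.63, 1.48 and 3.36 RPKM (log2 difference 1.52, adjusted p = 7.15e-07). Sterol and lipid genes fell in 4 of 10 tested and rose in 1, which became 2 and 2 with nuclear gene reads, where FDPS and PLIN2 were no longer called, and 4 and 2 without blastocyst C. HMGCS1, which makes HMG-CoA for the mevalonate pathway, fell from 19.9, 21.1 and 12.1 RPKM to 0.0213, 0.427 and 0.01 RPKM (log2 difference -4.003, adjusted p = 7.73e-06), and the demethylating enzyme MSMO1 from 23.9, 29.2 and 30.2 to 1.26, 2.84 and 3.59 RPKM (log2 difference -3.07, adjusted p = 1.21e-07). ACSL4, which activates polyunsaturated fatty acids, rose from 0.672, 0.942 and 0.814 to 15.5, 16.5 and 10.3 RPKM (log2 difference 3.03, adjusted p = 9.02e-07). Of the amino acid transporters, 3 were tested: SLC1A1, a glutamate carrier, and SLC7A7, of cationic amino acid export, rose with log2 differences of 2.09 and 1.30, and the cationic carrier SLC7A3 fell with -2.29.

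Antioxidant genes moved in both directions: 5 of 11 tested rose and 3 fell, against 19.8% and 28.5% over all genes tested. GPX1, a glutathione peroxidase, rose from 1.38, 1.96 and 2.08 RPKM to 25.1, 54.6 and 42.7 RPKM (log2 difference 3.84, adjusted p = 2.38e-07), and thioredoxin (TXN) from 0.426, 0.374 and 0.437 to 16.3, 6.62 and 20.995 RPKM (log2 difference 3.34, adjusted p = 6.52e-07). SOD1, the cytosolic superoxide dismutase, fell from 11.6, 9.54 and 11.9 RPKM to 1.72, 0.986 and 4.96 RPKM (log2 difference -1.91, adjusted p = 3.42e-04), and GPX8, a peroxidase of the endoplasmic reticulum, from 2.21, 2.44 and 3.50 RPKM to no read in any blastocyst library. Chaperones and endoplasmic reticulum stress genes rose in 8 of 27 tested and fell in 6, against the same 19.8% and 28.5%, and 13 rose without blastocyst B. HSPA5, the reticulum's main chaperone, measured 1.61, 1.07 and 1.39 RPKM in oocytes and 55.4, 47.6 and 61.8 RPKM in blastocysts (log2 difference 4.57, SE 0.39, adjusted p = 9.20e-09), and the lectin chaperone CALR 0.726, 0.846 and 0.642 and 12.9, 10.4 and 8.31 RPKM (log2 difference 2.71, adjusted p = 1.41e-08). The stress factors of the same response parted: ATF4 rose from 22.3, 14.04 and 18.5 to 59.5, 70.6 and 93.1 RPKM (log2 difference 1.97, adjusted p = 3.01e-04), whereas DDIT3 fell from 63.7, 94.5 and 67.0 to 11.8, 6.46 and 18.1 RPKM (log2 difference -2.62, adjusted p = 4.82e-04).

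Histone genes also moved in both directions, 5 of 16 tested higher and 7 lower, against 19.8% and 28.5% over all genes tested. H2AFZ, which encodes the H2A.Z variant (chromosome 6, 24995383 to 24997922), rose from 0.996, 0.589 and 1.97 RPKM to 80.2, 53.6 and 159 RPKM (log2 difference 5.40, SE 0.54, adjusted p = 6.88e-08), and H2AFJ from 0.302, 0.119 and 0.01 to 14.6, 4.69 and 20.8 RPKM (log2 difference 3.45, adjusted p = 4.53e-06). H1FOO, the oocyte linker histone, fell from 9.41, 8.58 and 5.18 RPKM to 0.01, 0.0238 and 0.0592 RPKM (log2 difference -3.05, adjusted p = 1.88e-04). The linker histone HIST1H1A fell from 108, 95.4 and 114.3 RPKM to 1.66, 2.33 and 1.52 RPKM (log2 difference -5.24, SE 0.75, adjusted p = 5.40e-06), and the testis and oocyte variant HIST1H2BA from 21.5, 19.4 and 11.999 to 0.758, 0.284 and 0.527 RPKM (log2 difference -3.59, adjusted p = 3.98e-06). Histone copies are close in sequence and reads may be shared. Of 14 histone modifiers and remodelers tested (62 found) 12 were not called; HDAC1, a deacetylase, rose from 0.393, 0.323 and 0.383 to 2.70, 1.78 and 3.66 RPKM (log2 difference 1.41, adjusted p = 1.08e-05) and the Polycomb subunit PCGF1 fell from 83.6, 62.5 and 91.2 to 10.3, 2.10 and 33.99 RPKM (log2 difference -2.89, adjusted p = 2.34e-04). With 1 call each way, 2 rose and 1 fell without blastocyst B, and 1 rose and 2 fell without C. On RPM 13 of 55 rose and 14 fell, against 20.8% higher and 36.6% lower over all genes on that scale.

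Many cell-cycle genes were lower in blastocysts. Mitosis and kinetochore genes fell in 26 of 39 tested and rose in 1, with a median of -1.37, and 19 fell with nuclear gene reads as the scale. NDC80, which couples kinetochores to microtubules, went from 19.8, 25.2 and 28.1 RPKM to 0.757, 0.607 and 1.26 RPKM (log2 difference -3.76, SE 0.29, adjusted p = 2.06e-09), and KIF20B, a kinesin of cytokinesis, from 24.2, 36.4 and 27.7 to 1.18, 0.547 and 1.28 RPKM (log2 difference -3.93, SE 0.32, adjusted p = 4.05e-09). The exception was SPC24, a partner of NDC80 in the same complex, which rose from 0.0597, 0.0294 and 0.0585 RPKM to 4.30, 3.76 and 12.3 RPKM (log2 difference 2.73, SE 0.29, adjusted p = 1.61e-07). DNA replication genes fell in 11 of 27 tested and rose in none. With nuclear gene reads as the scale 7 fell and 1 rose. PCNA, the sliding clamp of the replication fork (chromosome 13, 46865843 to 46870188), held 0.953% of oocyte gene reads and went from 623, 492 and 1249 RPKM to 15.9, 4.99 and 97.5 RPKM (log2 difference -5.08, SE 0.69, adjusted p = 3.22e-06). POLE2, a subunit of polymerase epsilon, fell from 18.9, 19.4 and 24.98 to 0.268, 0.138 and 0.802 RPKM (log2 difference -3.99, adjusted p = 1.27e-08). Cyclins, CDKs and their inhibitors were mostly not called (5 of 21 tested lower, 2 higher, 14 not called). The CDK subunits CKS1B (74.5, 67.1 and 41.7, then 1.63, 0.324 and 1.03 RPKM) and CKS2 (66.6, 59.7 and 49.1, then 8.47, 1.15 and 7.53 RPKM) fell with log2 differences of -4.98 and -3.404. CDK4 and CCNL1, the risers, were not called without blastocyst C, where the adjusted p was 0.122 for CDK4 and 0.00211 for CCNL1 with a log2 difference of 0.97.

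Proteasome, spliceosome and RNA polymerase II genes had shares of calls near those over all genes tested (19.8% higher, 28.5% lower), and members are given as examples of each direction. Ubiquitin conjugation genes fell in 9 of 18 tested and rose in 2 (1 without blastocyst C, 3 with nuclear gene reads). UBB, a polyubiquitin gene and one of the most abundant oocyte transcripts, measured 4116, 2758 and 5910.3 RPKM in oocytes and 347, 128 and 1848 RPKM in blastocysts (log2 difference -3.22, SE 0.69, adjusted p = 4.27e-04), with blastocyst C the highest of its group. Proteasome genes rose in 7 of 29 tested and fell in 6, which became 13 and 3 with nuclear gene reads and 4 and 10 without blastocyst C. The core subunit PSMA4 fell from 262, 233 and 332 RPKM to 13.4, 13.5 and 56.5 RPKM (log2 difference -3.58, adjusted p = 3.45e-06), while the ATPase PSMC5 of the regulatory cap rose from 0.145, 0.158 and 0.118 to 4.33, 5.26 and 15.4 RPKM (log2 difference 2.84, adjusted p = 1.26e-06). In these genes no oocyte library overlapped a blastocyst library. Spliceosome genes fell in 12 of 38 and rose in 6; with nuclear gene reads 5 fell and 7 rose. SNRPB2 of the U2 particle fell from 120.3, 99.6 and 99.98 to 5.85, 4.04 and 14.99 RPKM (log2 difference -3.71, adjusted p = 1.80e-07), and the RNA-binding protein HNRNPK rose from 0.666, 0.711 and 0.895 to 13.8, 14.99 and 11.5 RPKM (log2 difference 3.03, adjusted p = 8.57e-08). RNA polymerase II and general factors fell in 11 of 31 and rose in 6, which became 7 and 7 with nuclear gene reads and 12 and 4 without blastocyst C. The subunit POLR2I rose from 0.710, 0.559 and 0.550 to 20.6, 4.64 and 19.4 RPKM (log2 difference 3.08, adjusted p = 2.72e-06), and MED21 of the Mediator fell from 21.5, 22.3 and 28.4 to 1.96, 1.33 and 3.69 RPKM (log2 difference -2.97, adjusted p = 2.88e-07). These subunits too were separated between the groups in every library. Nuclear transport genes fell in 5 of 13 and rose in 1 (2 with nuclear gene reads): the pore protein NUP35 went from 35.999, 47.5 and 50.2 to 0.423, 0.150 and 1.35 RPKM (log2 difference -4.85, adjusted p = 7.45e-09), and the importin IPO5 from 0.140, 0.121 and 0.160 to 2.36, 2.96 and 2.99 RPKM (log2 difference 1.72, adjusted p = 1.09e-07).

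Germline and meiosis genes fell in 7 of 16 tested and rose in none, and on RPM in 24 of 31 with none higher. SYCP3, of the synaptonemal complex, measured 36.98, 38.1 and 38.5 RPKM in oocytes and 1.82, 0.337 and 7.49 RPKM in blastocysts (log2 difference -3.61, SE 0.56, adjusted p = 1.37e-05). Signalling ligands and receptors fell in 4 of 10 tested (82 found) and rose in none on RPKM. On RPM 10 of 49 rose and 19 fell, near the 20.8% higher and 36.6% lower over all genes on that scale. DKK1, a secreted WNT antagonist, went from 3.41, 8.17 and 8.21 to 1.11, 0.129 and 1.01 RPKM (log2 difference -2.10, adjusted p = 1.52e-04). Lysosome and endosome genes rose in 6 of 16 and fell in 4, against 19.8% and 28.5% over all genes tested. Of these genes 8 were higher without blastocyst B and 4 without C. The protease CTSV rose from 0.471, 0.452 and 1.18 RPKM to 74.8, 4.75 and 185 RPKM (log2 difference 4.70, SE 0.77, adjusted p = 2.92e-05), a spread of the blastocyst libraries far wider than that of the proton pump subunit ATP6V0B (1.4997, 1.28 and 1.21 to 15.5, 8.90 and 15.9 RPKM, log2 difference 2.59, adjusted p = 3.17e-07). NPC2, a lysosomal cholesterol carrier, fell from 7.80, 7.05 and 7.86 to 0.140, 0.0181 and 0.246 RPKM (log2 difference -2.92, adjusted p = 6.98e-05). MCL1, a survival protein, was the riser among 5 apoptosis genes tested (1.36, 1.39 and 0.788, then 27.4, 11.7 and 25.2 RPKM, log2 difference 3.29, adjusted p = 9.94e-07). Of 30 interferon and STAT genes found 1 was tested, IFIT1, which was not called.

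**Figure D3:**
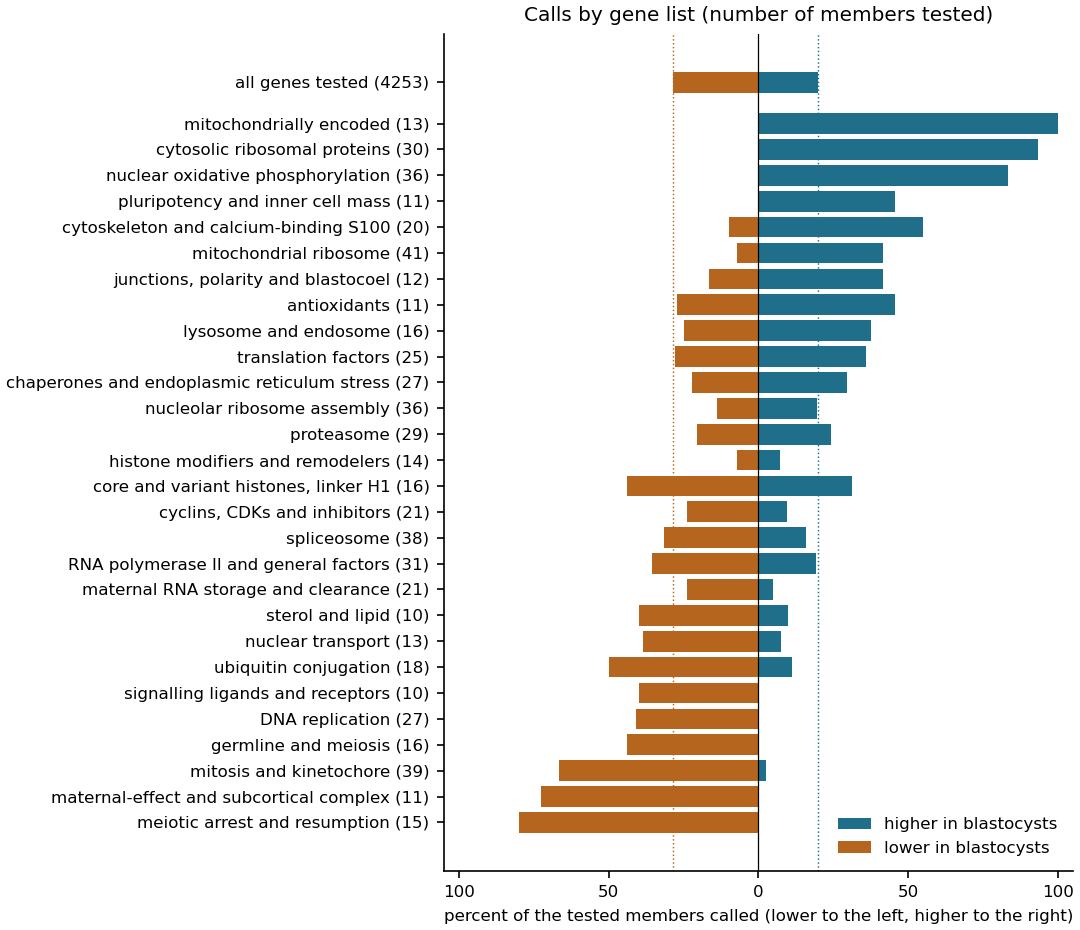
Percent of the tested members of each gene list called higher (right) or lower (left) in blastocysts, with the number tested in brackets, for lists with at least 10 members tested. Dotted lines mark the 19.8% higher and 28.5% lower over all genes tested; mitochondrially encoded, ribosomal protein and oxidative phosphorylation genes extend furthest to the right, and meiotic, maternal-effect and mitosis genes furthest to the left.

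A small set of genes was present in every library of one group and had no read in the other. There were 18 genes with no read in oocytes and at least 1 RPKM in every blastocyst library, 8 with a symbol, and 20 with the reverse pattern, 9 with a symbol. These counts depended on blastocyst B: without it they were 33 and 57, and up to 3 reads allowed as absence gave 41 and 48. After KRT8, genes of the first kind with a symbol included GEMIN7 of the SMN complex (13.8, 2.87 and 46.6 RPKM, at least 350-fold higher) and PLAU, the urokinase protease (17.3, 2.11 and 13.5 RPKM, at least 2971-fold). GEMIN7 and PLAU were uneven between blastocyst libraries, with B the lowest. Of the second kind FRRS1L was highest (9.18, 7.04 and 7.41 RPKM in oocytes, at least 7743-fold lower in blastocysts). NPM2, a histone chaperone of the egg that decondenses sperm chromatin, followed at 7.78, 5.84 and 4.13 RPKM (at least 3705-fold lower). TMEM100 (2.26, 1.80 and 12.6 RPKM) owed its mean to oocyte C and was not called without it. BSPH1 stood at 6.76, 4.70 and 1.97 RPKM in oocytes, and HIST3H3, ANKRD40CL and C3orf49 completed the set with GPX8 and EIF4E1B.

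Several of the largest falls belonged to no list. The largest of all, singled out after its values were seen, was that of ENSCHIG00000007743, which has no symbol in the table: its mean was 6558 RPKM in oocytes and 0.0882 RPKM in blastocysts (log2 difference -12.5, SE 0.97). TMEM60, a membrane protein gene, was among the most abundant oocyte genes at 1540.3, 1279 and 1811 RPKM and stood at 8.64, 7.74 and 36.9 RPKM in blastocysts (log2 difference -6.70, SE 0.75, adjusted p = 2.84e-07). CETN3, a centrin of the centrosome, held 1.13% of oocyte gene reads and went from 190.4, 209 and 219 RPKM to 2.90, 1.42 and 7.77 RPKM (log2 difference -5.57, SE 0.55, adjusted p = 6.14e-08). CIART, a circadian repressor, fell from 65.5, 41.4 and 81.8 RPKM to 0.0466, 0.238 and 0.01 RPKM (log2 difference -5.81, SE 0.59, adjusted p = 8.01e-08), with no read in blastocyst C. TBPL1, a relative of the TATA-binding protein, fell from 78.1, 96.4 and 80.9 to 0.469, 0.149 and 1.16 RPKM (log2 difference -5.80, adjusted p = 1.05e-08), TRIM59 from 89.96, 106 and 114.2 to 0.655, 0.236 and 0.828 RPKM (log2 difference -6.06, adjusted p = 3.43e-06), DEPDC7 from 90.3, 76.1 and 79.6 to 0.251, 0.162 and 0.451 RPKM (log2 difference -6.01, adjusted p = 1.71e-08), and the G protein-coupled receptor GPR84 from 68.9, 45.8 and 42.1 to 0.01, 0.128 and 0.0338 RPKM (log2 difference -5.62, adjusted p = 6.43e-07). The genes with a symbol here were picked among genes whose oocyte and blastocyst libraries did not overlap, so their separation follows from the choice.

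The stages in between showed where each difference arose, using the same values as the calls and therefore as a description. Of the 842 higher genes, 331 (39.3%) had the largest part of their rise between the 8-cell and 16-cell stages, 294 (34.9%) between the 16-cell stage and the morula, and 169 (20.1%) between the morula and the blastocyst. RPL10A, KLF4 and HSPA5 belonged to the first set, LGALS1 to the second, and KRT8, DAB2, KLF5, ACTB and COX2 to the third. Of the 1211 lower genes, 560 (46.2%) fell most between the 8-cell and 16-cell stages and 483 (39.9%) between the morula and the blastocyst. GDF9, ZP4, MOS and DNMT1 belonged to the first of these and BTG4, NDC80, PCNA, UBB and TMEM60 to the second. With the gene span multiplied out the order of these 2 steps was the other way round, with 378 genes at the earlier step and 661 at the later. Leaving out 16-cell C and morula C, a pair of libraries that stood apart from the rest of their stages, gave 651 and 370.

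**Figure D4:**
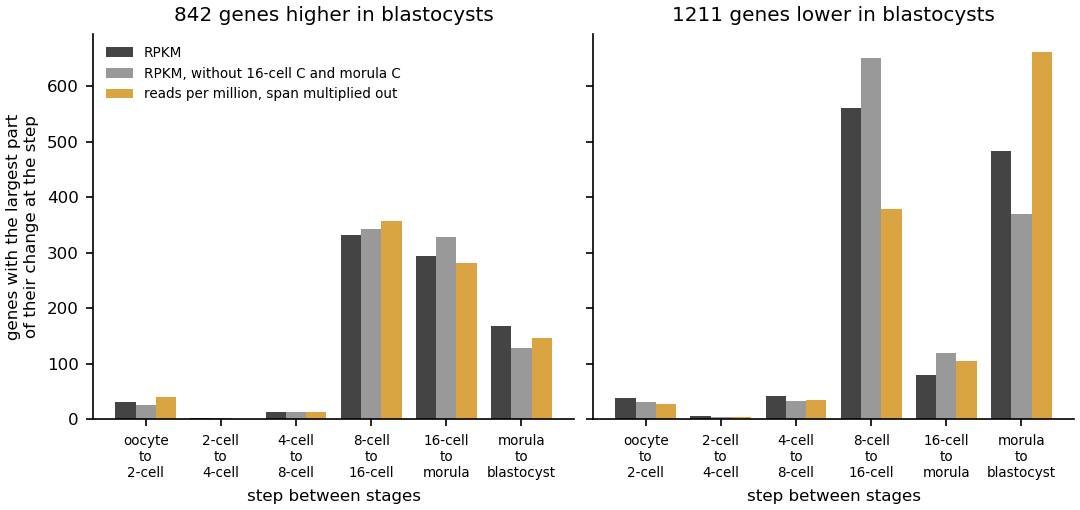
Number of called genes whose largest change in the direction of their call fell at each of the 6 steps between stages, for the 842 higher (left) and 1211 lower genes (right), on RPKM, without 2 libraries and with the gene span multiplied out. Rises gather at the 3 steps after the 8-cell stage, and falls at the 8-cell to 16-cell and morula to blastocyst steps, whose order differs between the scales.

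Many genes that lay close at both ends on the log2(RPKM + 1) scale had moved in between. A gene was taken to have come back when it was not called between oocyte and blastocyst, differed by less than 0.5 log2 units, and at some stage in between was called in one direction against the oocyte and in the other towards the blastocyst. These comparisons share the oocyte, blastocyst and intermediate libraries, the genes were chosen by their values, and no test is given. Of 1138 genes that were not called and lay within 0.5, 473 met the rule, 290 of them with a symbol; 439 were grouped by a rise and 34 by a fall, and 2 of the 473 did both. The largest difference inside the limit was 0.499 and the smallest outside it 0.502. For 307 of the 473 the 95% interval of the end-to-end difference lay within 2-fold on that scale. Of the 439 that rose, 283 were below 1 RPKM in the mean of both ends, so that these genes passed the filter mainly through the stages in between. Below 1 RPKM the scale shrinks differences, so for these 283 nearness does not mean a like level. BMP4 met the rule with means of 0.751 RPKM in oocytes and 0.238 RPKM in blastocysts. Its oocyte and blastocyst libraries did not overlap, and on RPM it was called lower (log2 difference -1.09, adjusted p = 0.0132).

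Most of the rises were late. The excursion, the smaller of the rise and the return, was largest at the 16-cell stage for 203 genes, in the morula for 147, at the 8-cell stage for 54, at the 2-cell stage for 27 and at the 4-cell stage for 8. Its median was 1.52 log2 units, and 115 genes exceeded 4-fold. TMEM37, a calcium channel subunit-like membrane protein, stood at 0.131, 0.0320 and 0.328 RPKM in oocytes, 83.3, 68.4 and 35.4 RPKM in 16-cell embryos and 0.0594, 0.0160 and 0.152 RPKM in blastocysts. PCDH8, a protocadherin, stood at 0.0167, 0.01 and 0.0198, 26.5, 23.5 and 11.6 and 0.0256, 0.115 and 0.0150 RPKM, and TUBA4A, an alpha-tubulin, at 0.01, 0.0182 and 0.01, 20.4, 8.88 and 5.03 and 0.01, 0.01 and 0.0592 RPKM. All 3 genes were thus below 1 RPKM at both ends and met the rule in all 19 alternative fits that gave it, as did the zinc-finger gene ZNF572.

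Other members had means above 1 RPKM at both ends and were higher in between. RBM3, an RNA-binding protein known for its response to cold, measured 5.55, 4.78 and 5.49 RPKM in oocytes, 350.3, 131 and 29.4 RPKM in 16-cell embryos and 4.87, 4.01 and 13.5 RPKM in blastocysts. SCNM1, a splicing factor, measured 4.51, 3.12 and 4.35, 135, 102 and 40.6 and 4.17, 2.53 and 15.4 RPKM. CDK1, the kinase that drives entry into M phase, measured 3.33, 3.47 and 2.77, 75.1, 44.4 and 20.4 and 2.64, 0.694 and 9.15 RPKM. Blastocyst C was the highest blastocyst library for all of these, and oocytes and blastocysts overlapped. RBM3 and SCNM1 no longer met the rule after quantile normalization, with gene reads or nuclear gene reads as the scale, or without blastocyst B, SCNM1 also not without blastocyst A or oocyte A, and CDK1 not without blastocyst B or C. PDP2, a pyruvate dehydrogenase phosphatase, was instead below 1 RPKM in the mean of both ends, so nearness does not mean a like level. It rose to a mean of 35.8 RPKM from 0.303 RPKM and ended at 0.656 RPKM. PDP2 no longer met the rule without blastocyst B.

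The 34 genes that fell and came back had their largest excursion at the 8-cell stage (14 genes), the 16-cell stage (14) or in the morula (6), with a median excursion of 1.47 log2 units. GDF3, a growth factor of pluripotent cells, stood at 4.76, 2.77 and 3.71 RPKM in oocytes, 0.372, 0.01 and 0.264 RPKM in morulae and 4.08, 1.35 and 9.42 RPKM in blastocysts. NME2, a nucleoside diphosphate kinase, stood at 34.8, 26.6 and 44.95, 6.40, 4.03 and 10.4 and 21.2, 14.6 and 66.4 RPKM. The splicing factor SRSF7 was lowest at the 8-cell stage, with 17.1, 11.4 and 20.2, 2.83, 3.06 and 3.53 and 10.5, 8.86 and 23.5 RPKM at the 3 stages, and NDUFA6, of complex I, with 7.68, 3.46 and 4.56, 0.593, 0.693 and 1.19 and 6.05, 3.43 and 8.09 RPKM. Blastocyst B was the lowest and C the highest blastocyst library of all 4 genes. GDF3 no longer met the rule without blastocyst B, NME2 without blastocyst C or oocyte B, and SRSF7 and DSTN without blastocyst C. DSTN, an actin-severing protein, first went up to a mean of 75.3 RPKM at the 4-cell stage and then down to 6.76 RPKM in morulae, between 19.9 RPKM in oocytes and 22.4 RPKM in blastocysts. CRYZ, a quinone oxidoreductase, met the rule in 6 of 19 alternative fits, and its oocyte libraries were uneven (13.7, 13.6 and 1.76 RPKM).

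**Figure D5:**
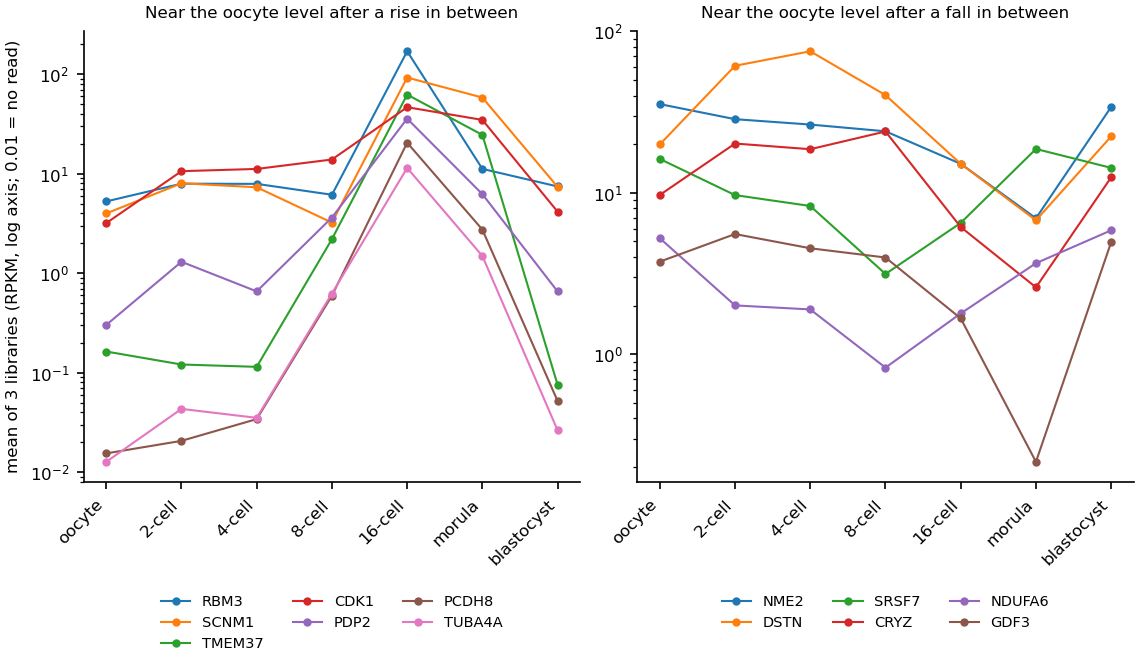
Mean RPKM of 3 libraries (log axis, 0.01 means no read) at the 7 stages for 7 genes that rose (left) and 6 that fell (right) and ended near their oocyte level. All 7 genes on the left are highest at the 16-cell stage; SRSF7 and NDUFA6 are lowest at the 8-cell stage and the other 4 on the right in the morula.

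The number of such genes moved with the scale. It was 312 after quantile normalization and 379 with nuclear gene reads, of which 223 and 273 were among the 473, and 1259 with the gene span multiplied out; 41 met the rule in every one of the 19 fits. More widely, 962 tested genes had a stage in between called above both ends, of which 683 were not called between the ends, 155 were lower and 124 higher in blastocysts. Stages called below both ends were found for 80 genes.

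Among all genes tested 1015 (23.9%), with 307 of the 473 among them, had an end-to-end interval within 2-fold on the log2(RPKM + 1) scale. On the same scale 629 of the 1015 also stayed within 2-fold of the oocyte at every stage. Genes at low RPKM can meet these limits and still differ more than 2-fold in level. VDAC1, the main pore of the outer mitochondrial membrane, measured 10.4, 10.3 and 14.5 RPKM in oocytes and 7.43, 11.1 and 20.6 RPKM in blastocysts, with an interval of -0.76 to 0.85. RRAGA, a GTPase of amino acid sensing, measured 9.29, 6.46 and 12.3 and 7.51, 5.24 and 11.2 RPKM (interval -0.85 to 0.42), and RANBP1, a cofactor of nuclear transport, 9.49, 7.69 and 4.85 and 7.99, 3.26 and 9.10 RPKM (interval -0.94 to 0.62). The oocyte and blastocyst libraries of these genes overlapped.

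Called genes differed in length and class. The median span was 3.38 kb for the higher, 10.9 kb for the lower and 10.01 kb for the genes not called. In the quartile of shortest genes 30.6% of those tested were higher and 23.8% lower, and in the quartile of longest genes 3.11% and 30.6%. With the span multiplied out the shares were 31.3% and 24.4% in the shortest and 12.8% and 46.9% in the longest quartile. Long noncoding (lincRNA) genes fell in 22 of 42 tested and rose in 4, and on RPM in 134 of 251 and 12. Each oocyte library had 20 to 24 lincRNA genes at 1 RPKM or more and each blastocyst library 5 (exact permutation p = 0.1). The number of all genes at 1 RPKM or more was 2401 ± 177 in oocytes and 2045 ± 403 in blastocysts, with overlapping libraries (exact two-sided permutation p = 0.2).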

How the data were processed

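The authors deposited RPKM values for 19040 genes in 21 libraries (3 for each of 7 stages). Per the submitters' processing notes FastQC, STAR 2.5.3a and Partek were used; no source used here gives the genome build, strandedness or counting rule. Low values minus the offset of 0.01, multiplied by the distance from start to stop, came out as whole multiples of 1 step size (within 0.05) in 94.9 to 96.9% of cases per library. That step gave the reads per gene and the depth of each library, but counts served only for depth, shares and absence. Main values were log2(RPKM + 1), filtered at 1 RPKM in 3 libraries and fitted with limma 3.58.1 (trend and robust, statmod 1.5.0, R 4.3.3) on all 21 libraries with a mean per stage. Benjamini-Hochberg adjustment ran over 4253 genes. Single values per library were compared by exact permutation.

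The members and the 36 gene and 9 marker lists were chosen with earlier results of these data known. Of 1733 listed symbols 1309 were found. Named genes followed a rule: the 12 largest rises and falls with a mean of at least 10 RPKM whose libraries did not overlap, up to 4 rises, 4 falls and 2 members not called per list, 10 rises and 6 falls among the genes that came back, 5 steady genes, 5 genes without a read in either group, those with most reads, and tracked genes. Not every gene it selects is reported here. On simulated data with 200 of 4253 genes changed in this comparison, 32% were called at a log2 change of 1, 89% at 2 and 98% at 3. A change of 1 equals the call limit, so any estimate below it could not be called. The simulated means were otherwise flat over the stages, and far fewer genes changed than the 48.3% called here. These percentages therefore do not measure the sensitivity of the real fit. Alternatives were other pseudocounts, filters, scalings, variance models, libraries and a letter block; scaling to gene reads and to nuclear gene reads was chosen after seeing the data. Python 3.11.15, numpy 2.4.6, pandas 2.3.3, scipy 1.17.1 and matplotlib 3.10.9 made tables and figures.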

Additional observations from a re-analysis of the deposited data

How the results depend on the processing

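No gene called on RPKM changed sign in any of the 14 alternative fits or the 6 that left out a library, among those each fit tested. Counts of genes higher, lower and back near the oocyte level were 542, 806 and 197 with a filter of 5 RPKM, 413, 503 and 228 with a pseudocount of 5, 1152, 1930 and 387 with a pseudocount of 0.1, 2156, 3801 and 1259 with the gene span multiplied out, and 1069, 1079 and 312 after quantile normalization. The higher and lower counts of the last and the counts with the letter as replicate block (839, 1210 and 472) were within 1.5 times the main ones. A limit of 1 for "near" gave 721 genes and a limit of 0.25 gave 290. Leaving out a library gave 722 to 990 higher and 1094 to 1325 lower genes, 417 to 503 genes that came back, a difference in genes detected of -545 to -144 and a difference in mitochondrial share of 26.6 to 33.1 percentage points. Genes with no read in oocytes or in blastocysts numbered 4 and 5 when present meant 5 RPKM, 120 and 95 at 0.1 RPKM, and 41 and 48 when up to 3 reads counted as absent; leaving out a library gave 19 to 33 and 20 to 57. Deviations of same-lettered oocyte and blastocyst libraries correlated at 0.16 (A), 0.04 (B) and 0.24 (C), and oocyte B correlated best with blastocyst A (0.38), so the letters were not taken as pairs, while the labels do not say whether they join stages; the paired fit kept 2048 of 2053 calls. Of 286 named genes tested, 63 lost their call with a pseudocount of 5, 7 with nuclear gene reads and at most 6 in any other fit, except that the filter of 5 RPKM left 65 untested, 38 of them called on RPKM, and kept 65.4% of all calls. Depth limits what absence means: a gene without a read may have had up to 3 reads' worth of RNA, and the fit of the 6 libraries alone gave no value for genes that moved in between.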

Other observations

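Genes were spread unevenly over chromosomes. On chromosome 7, 29.9% of 221 tested genes were higher in blastocysts and the median difference was 0.17, and on chromosome 1, 10.4% of 182 were higher with a median of -0.48. Multiplying out the span left chromosome 7 with the largest share of higher genes (29.6% of 540) and put chromosome 12 lowest (14.98% of 207). Median spans of the tested genes were 5313 bases on chromosome 7 and 11851 on chromosome 1.

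Pseudogene classes behaved unlike the lincRNA genes. Processed pseudogenes were higher in 18 of 50 tested and lower in 12, with a median of 0.44, and other pseudogenes higher in 16 of 40 and lower in 10, with a median of 0.52. Their reads may be shared with the genes they copy.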
